A study of Mus musculus with 8 samples.

Results

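The genes described are those of mitochondrial ribosomal proteins, chosen by symbol as the rows whose name starts with Mrpl or Mrps followed by a number. There were 76 such genes among 20258 rows with a symbol, 47 named for the large subunit (Mrpl) and 29 for the small subunit (Mrps). They were measured in bone-marrow derived macrophages of C57BL/6 mice, which are immune cells grown in culture from marrow precursors. The groups were 3 libraries of cells kept for 24 h with LPS plus IFNg, which are a bacterial cell wall component and the cytokine interferon gamma, 3 libraries of cells kept with the cytokine IL4, and 2 libraries of cells left unstimulated for the same time. The cells were not reported to carry any allele or transgene, and the labels state no dose, sex or age. Nothing in the labels tells whether replicate libraries stand for different mice or only different wells, so a p-value reflects library-to-library spread, which may be technical.

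The mitochondrial ribosome translates the few proteins that mitochondrial DNA encodes, which are subunits of the respiratory chain and of the ATP synthase. Its own proteins are encoded in the nucleus, made in the cytosol and imported. Many are descended from proteins of the bacterial ribosome, and others were added in the mitochondrial lineage. Classical activation with LPS plus IFNg and alternative activation with IL4 are known for their different use of mitochondrial respiration.

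The deposited values are log2 expression after quantile normalisation, from sequencing of transcript 3' ends, so a log2 difference of 1 is a 2-fold difference. Read depth cannot be recovered from such values and is unknown. All 76 genes varied between libraries and entered the limma test over 13615 genes, in which a gene passed at a Benjamini-Hochberg adjusted p of 0.05. Their mean log2 levels over the 8 libraries ran between 2.02 and 8.62, and 64 of the 76 had a mean of at least 5. Among the tested genes, 2964 to 2985 were listed at 0 in the LPS plus IFNg libraries, 3204 to 3568 in the IL4 libraries, and 1577 and 2588 in the unstimulated libraries. Of the mitochondrial ribosomal protein values 1 alone was exactly 0, that of Mrps27 in unstimulated replicate 2. All 8 macrophage marker genes, such as Csf1r and Cd68, stood above 0 in every library.

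On the deposited scale the median of the family stood highest in the IL4 libraries. With libraries scaled to equal means of the cytosolic ribosomal protein genes, the LPS plus IFNg values lay above those of IL4 by a median of 0.86. The median of all genes tested was then 1.48. On the deposited scale 66 of the 82 genes used for that scaling passed as lower in LPS plus IFNg against IL4. The median log2 level of the 76 genes was 6.18, 6.22 and 6.15 in LPS plus IFNg libraries 1, 2 and 3, 6.90, 6.65 and 6.69 in IL4 libraries 1, 2 and 3, and 6.26 and 6.31 in unstimulated libraries 1 and 2. Every IL4 library lay above every other library, and every LPS plus IFNg library lay below both unstimulated ones by 0.16 or less on the log2 scale. The pooled SD of this median between replicate libraries was 0.0905. In these bulk libraries, fewer cells with a transcript and less of it per cell cannot be told apart.

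The genes named for either subunit showed the higher median log2 level with IL4. The Mrps set is by name, and it holds Mrps18a and Mrps30, built into the large subunit, and Mrps36, later assigned to another complex. The Mrpl genes had medians of 6.32, 6.38 and 6.24 in LPS plus IFNg libraries, 7.13, 6.83 and 6.91 in IL4 libraries, and 6.35 and 6.50 in unstimulated libraries. The Mrps genes had medians of 5.89, 6.08 and 5.94 in LPS plus IFNg libraries, 6.65, 6.31 and 6.51 in IL4 libraries, and 6.05 and 6.19 in unstimulated libraries. For the Mrps genes the gap between the lowest IL4 library and the highest unstimulated library was small, and for the Mrpl genes it was wider. Summed on the linear scale and then logged, the Mrps genes came to 11.21 to 11.28 in LPS plus IFNg libraries, 11.84 to 12.01 in IL4 libraries and 11.61 to 11.68 in unstimulated libraries. The Mrps sum is weighted to the few genes of highest value, among them Mrps33 and Mrps9. The Mrpl genes came to 12.16 to 12.22 in LPS plus IFNg libraries, 12.56 to 12.76 in IL4 libraries and 12.14 to 12.15 in unstimulated libraries. So the sum with LPS plus IFNg lay below unstimulated for the Mrps genes but not for the Mrpl genes.

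**Figure D1:**
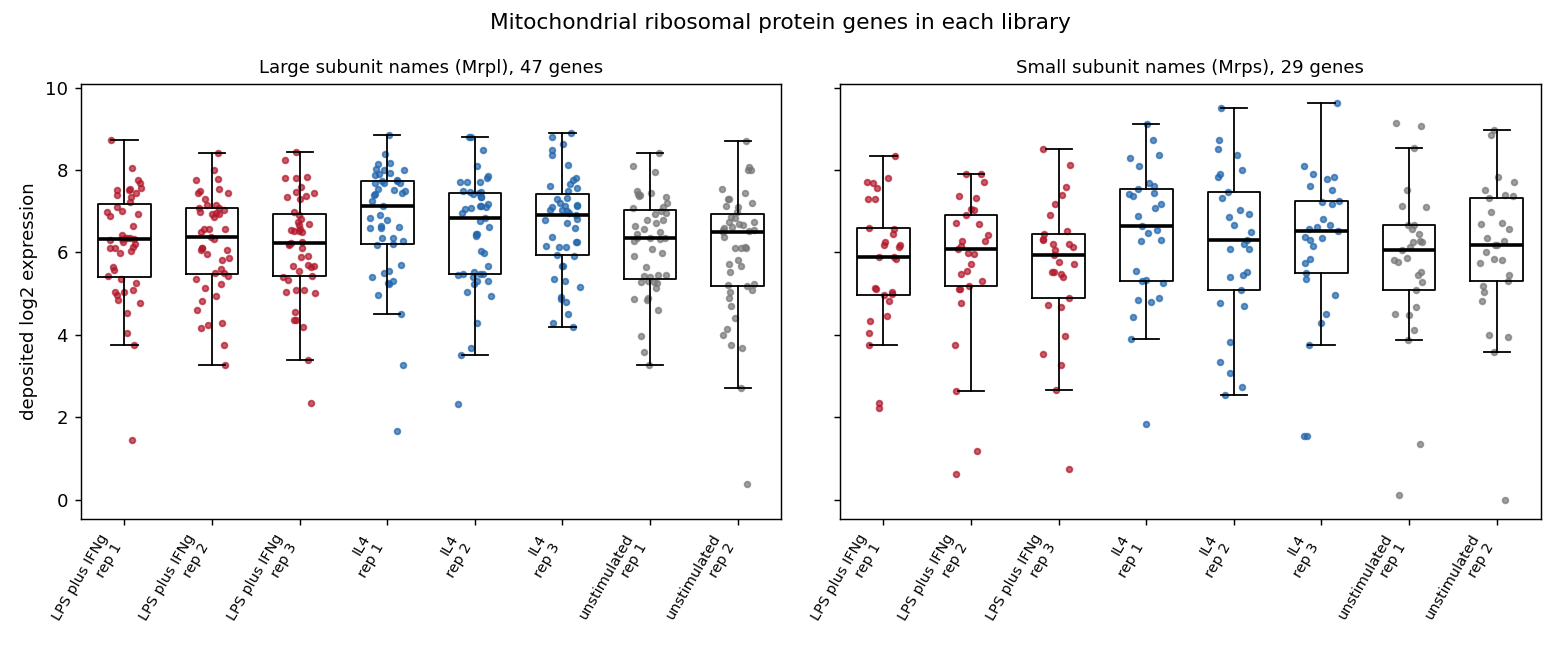
Deposited log2 expression (vertical axis) of each mitochondrial ribosomal protein gene in each library, with 47 Mrpl genes on the left and 29 Mrps genes on the right. Points are genes, boxes are quartiles with the median as a thick line, whiskers reach the last value within 1.5 box heights, and the thick lines of the 3 IL4 libraries stand above those of the other 5 in both panels.

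The ordering of group means was also counted gene by gene. The IL4 mean was the highest of the 3 groups in 43 of the 64 genes with a mean log2 level of at least 5 (67.2%), against 33.1% of all 7283 genes with such a mean. The LPS plus IFNg mean was the highest in 8 of the 64 (12.5%), against 34.2% of those 7283 genes. The IL4 mean was highest and the LPS plus IFNg mean lowest in 28 of the 64 (43.8%), against 21.7%. In 15 of the 64 genes (23.4%) every IL4 library lay above the 5 others, and in 0 of the 64 did every LPS plus IFNg library do so, against 8.4% and 11.8% of the 7283 genes. The 15 were Mrpl3, Mrpl12, Mrpl17, Mrpl18, Mrpl32, Mrpl42, Mrpl49, Mrpl50, Mrpl54, Mrps12, Mrps14, Mrps16, Mrps25, Mrps35 and Mrps36. These orderings are descriptions of genes in the same 8 libraries and carry no test.

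The comparison of LPS plus IFNg with IL4 asks how the transcripts differ between classical and alternative activation. In this comparison 2 of the 76 genes fell, Mrps25 and Mrpl12, none rose, and 74 did not pass the limma test. Over all genes tested, 6.96% were lower and 5.91% higher at the same threshold, so the share of the family that passed was below that of all genes in both directions. At an unadjusted p under 0.05, 18 were lower and 0 higher, against 13.9% and 11.6% of all genes tested. That count of lower genes was 8 without IL4 replicate 1, 10 without IL4 replicate 2 and 3 with housekeeping scaling (2 higher). With scaling to cytosolic ribosomal protein genes 0 were lower and 32 higher. Under that scaling 87.7% of all 13615 genes tested were above 0, and 6685 of them were higher at an adjusted p under 0.05. The log2 difference was below 0 in 57 genes and above 0 in 19, with a median of -0.62, against 0 over all genes tested (0.86, against 1.48, with scaling to cytosolic ribosomal protein genes). The median was -0.48 over the Mrpl genes and -0.70 over the Mrps genes. Libraries did not overlap in 20 genes that were lower (14.8% of all genes tested) and in 1 that was higher (12.4% of all genes tested). Set against genes of like level, the 64 genes with a mean log2 level of at least 5 were counted in the same way. Of these, 18 were lower and 0 higher at an unadjusted p under 0.05, against 19.8% and 15% of the 7283 genes with such a mean. Libraries did not overlap in 20 that were lower and in 0 that were higher, against 21.3% and 16.8%, and 13 of the 64 had a difference above 0, against 47.8%.

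Mrps25 encodes a small subunit protein with no bacterial counterpart. Its log2 level was 6.17, 6.28 and 6.31 in LPS plus IFNg libraries, 8.72, 7.46 and 8.10 in IL4 libraries, and 6.66 and 6.98 in unstimulated libraries. The LPS plus IFNg libraries lay within 0.14 of each other and below all 5 others, and the IL4 libraries lay above all others. Mean log2 levels were 6.25 ± 0.08 with LPS plus IFNg and 8.09 ± 0.63 with IL4 (SD, n = 3 each), a log2 difference of -1.84 (SE 0.34, limma adjusted p = 0.0127). With scaling to cytosolic ribosomal protein genes it did not pass (-0.36, adjusted p = 0.390). Against unstimulated cells neither stimulus passed, with log2 differences of -0.57 for LPS plus IFNg (adjusted p = 0.487) and 1.27 for IL4 (adjusted p = 0.211). In the GENCODE M21 annotation an exon of Mrps25 overlaps one of Nr2c2 on the opposite strand, and the sources used here do not say whether reads were counted by strand.

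Mrpl12 belongs to the stalk of the large subunit, which recruits translation factors, and is also known to bind the mitochondrial RNA polymerase. Its log2 level was 6.36, 6.38 and 6.20 in LPS plus IFNg libraries, 7.44, 7.48 and 7.61 in IL4 libraries, and 6.32 and 7.29 in unstimulated libraries. The IL4 libraries lay above all others, and the LPS plus IFNg libraries lay beside the lower of the unstimulated ones. Mean log2 levels were 6.32 ± 0.10 with LPS plus IFNg and 7.51 ± 0.09 with IL4 (SD, n = 3 each), a log2 difference of -1.19 (SE 0.30, limma adjusted p = 0.0396). The call was lost when any 1 of the 6 stimulated libraries was left out, with adjusted p between 0.0827 and 0.104, and the log2 difference then lay between -1.23 and -1.14. It was also lost without the intensity trend (adjusted p = 0.0553), with the 2 groups alone (0.0511) and with housekeeping scaling (0.174), and the sign turned with scaling to cytosolic ribosomal protein genes (0.28, adjusted p = 0.508).

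Promoter sequence was available in RefSeq's table for build GRCm38.p6, where a window runs from 250 bases before a gene's start to 50 after it. All 76 genes matched a RefSeq gene, and 67 of them had a window, 73 windows in all. Each window was searched on both strands for short motifs of factors known to act on nuclear genes of mitochondrial proteins, or on growth genes. These were the palindromic NRF1 motif, CCGGAAG for the ETS family, to which GABPA belongs, AAGATGGC for YY1, CACGTG for the E-box that MYC binds, and TGACGTCA for the cyclic AMP response element. No matches of different motifs overlapped in these windows. The windows of Mrps25 (chr6:92183974-92184273, minus strand) and Mrpl12 (chr11:120484387-120484686, plus strand) are shown because these are the genes that passed, and neither holds any of the 5 motifs. Those of Mrps12 (chr7:28741772-28742071, minus strand) and Mrpl39 (chr16:84735195-84735494, minus strand) are shown as windows with matches, in capitals, which mark the YY1 motif on the reverse strand and then the ETS motif in Mrps12, and the NRF1 motif in Mrpl39.
Mrps25: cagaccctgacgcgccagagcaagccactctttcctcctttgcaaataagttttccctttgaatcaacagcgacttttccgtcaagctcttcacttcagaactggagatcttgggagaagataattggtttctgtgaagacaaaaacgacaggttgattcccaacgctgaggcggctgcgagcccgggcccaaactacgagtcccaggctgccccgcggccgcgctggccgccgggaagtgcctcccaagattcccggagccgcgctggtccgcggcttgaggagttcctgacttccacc
Mrpl12: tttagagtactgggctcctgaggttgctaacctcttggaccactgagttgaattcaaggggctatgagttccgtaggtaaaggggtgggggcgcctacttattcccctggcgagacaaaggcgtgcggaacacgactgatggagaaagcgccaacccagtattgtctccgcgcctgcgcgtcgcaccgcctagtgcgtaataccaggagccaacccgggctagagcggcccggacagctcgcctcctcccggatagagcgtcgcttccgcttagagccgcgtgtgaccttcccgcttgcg
Mrps12: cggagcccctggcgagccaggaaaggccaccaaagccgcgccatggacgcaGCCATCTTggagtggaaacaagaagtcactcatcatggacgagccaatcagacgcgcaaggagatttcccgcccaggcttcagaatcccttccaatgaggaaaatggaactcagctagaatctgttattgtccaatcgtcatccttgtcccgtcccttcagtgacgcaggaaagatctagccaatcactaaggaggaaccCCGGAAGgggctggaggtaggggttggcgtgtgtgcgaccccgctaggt
Mrpl39: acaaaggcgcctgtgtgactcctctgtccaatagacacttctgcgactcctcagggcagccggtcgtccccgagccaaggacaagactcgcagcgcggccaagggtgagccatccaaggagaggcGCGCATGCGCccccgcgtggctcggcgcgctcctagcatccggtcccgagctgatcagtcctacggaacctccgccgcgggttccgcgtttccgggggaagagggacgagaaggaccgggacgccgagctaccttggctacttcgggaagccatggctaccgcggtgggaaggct

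At least 1 of the 5 motifs was in 40 of the 73 windows. The ETS motif was in 24 (32.9%), against 19.7% of the windows of all genes with a mean log2 level of at least 5 and 8.91% of all 32544 windows. The YY1 motif was in 12 (16.4%), against 4.94% and 2.77%. The first base of the YY1 match lay at a median of 16 bases after the start (lowest -242, highest 37), and that of the ETS match at a median of 22 bases before it. The NRF1 motif was in 3 (4.11%), those of Mrpl9, Mrpl32 and Mrpl39, against 2.28% and 0.974%. The E-box was in 7 windows (9.59%), against 10.8% and 7.17%, and the cyclic AMP response element in 2 (2.74%), against 3.22% and 1.80%. The 7 E-box windows belonged to 5 genes, which are 7.46% of the 67 genes with a window. By gene, that stood against 12.9% of genes with a mean log2 level of at least 5 and 8.11% of all genes with windows. The 74 windows of cytosolic ribosomal protein genes held the ETS motif in 36.5%, YY1 in 10.8% and NRF1 in 2.70%. They held the E-box in 10.8% and the cyclic AMP response element in 6.76%. A higher share of ETS and YY1 matches was thus not particular to the mitochondrial ribosomal protein genes. Between the 24 mitochondrial ribosomal protein genes with an ETS match and the 43 without one, the median log2 difference for LPS plus IFNg minus IL4 was -0.59 and -0.63. For IL4 minus unstimulated, the median log2 differences with and without an ETS match were 0.28 and 0.56, and for the 12 genes with a YY1 match and the 55 without they were 0.38 and 0.53. For LPS plus IFNg minus IL4 the medians with and without a YY1 match were -0.22 and -0.64. A match is only a run of letters in this window, and no test was made of these medians.

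Values of 4 more genes that the naming rule takes are given here, none of which passed in this comparison. Mrps14, a small subunit protein with a bacterial counterpart, had log2 levels of 5.89, 5.99 and 6.51 in LPS plus IFNg libraries, 7.69, 7.83 and 6.81 in IL4 libraries, and 6.45 and 6.28 in unstimulated libraries. Its log2 difference was -1.31 (SE 0.36, limma adjusted p = 0.0543), with libraries that did not overlap. It passed with only genes of a mean of at least 5 tested (adjusted p = 0.0364), after dropping the 0.25 of genes with the lowest means (0.0494) and without IL4 replicate 3 (0.0237). Mrpl54, a large subunit protein added in the mitochondrial lineage, had 6.43, 5.97 and 5.33 in LPS plus IFNg libraries, 8.0, 7.07 and 6.82 in IL4 libraries, and 6.79 and 6.58 in unstimulated libraries. Its log2 difference was -1.39 (SE 0.42, adjusted p = 0.0804, or 0.0396 with only genes of a mean of at least 5 tested), and its LPS plus IFNg libraries lay below all others. Mrps12, a protein of the decoding centre, had log2 levels of 6.59, 6.69 and 6.92 in LPS plus IFNg libraries, 7.44, 8.0 and 7.62 in IL4 libraries, and 6.14 and 7.38 in unstimulated libraries. The difference was -0.95 (SE 0.36, adjusted p = 0.146), with the IL4 libraries above all 5 others. Mrpl3, which lies near the site where peptide bonds are formed, had 7.10, 3.75 and 6.98 in LPS plus IFNg libraries, 7.25, 8.80 and 7.21 in IL4 libraries, and 5.27 and 6.87 in unstimulated libraries. LPS plus IFNg replicate 2 stood far below its other replicates, and the log2 difference of -1.81 had an SE of 0.99 (adjusted p = 0.319).

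**Figure D2:**
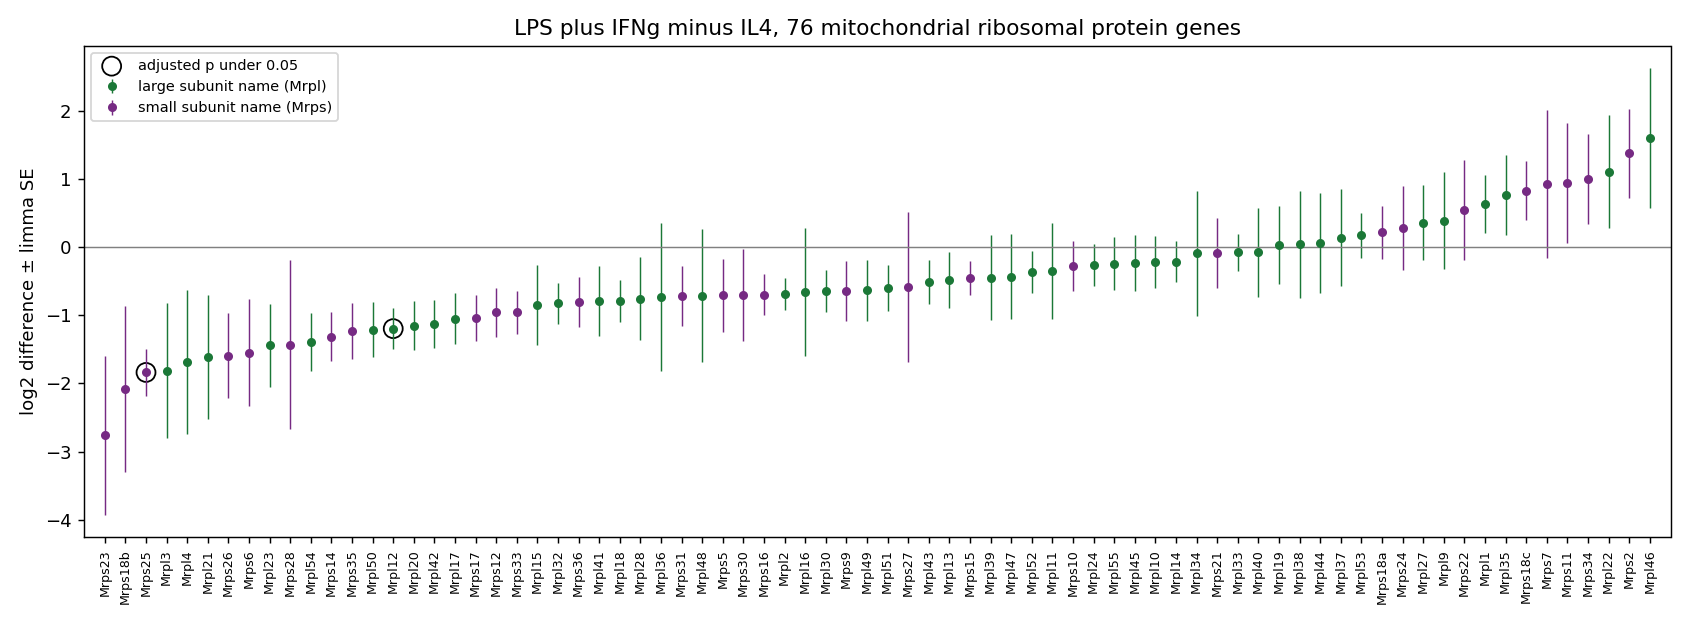
Log2 difference of LPS plus IFNg minus IL4 (vertical axis, points with bars of 1 limma standard error) for each of the 76 genes, ordered by the difference. Circles mark Mrps25 and Mrpl12, the 2 with an adjusted p under 0.05, and 57 of the 76 points lie below 0 on the deposited scale. With libraries scaled to cytosolic ribosomal protein genes 8 would, and 87.7% of all genes tested would then lie above 0.

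The comparison of IL4 with unstimulated cells asks which transcripts alternative activation alters. None of the 76 genes passed the limma test, against 0.514% of all genes tested that were higher and 0.793% that were lower. The lowest adjusted p was 0.211, that of Mrps25. At an unadjusted p under 0.05, 11 were higher and 0 lower, against 5.53% and 6.57% of all genes tested. The 11 became 4 without IL4 replicate 1, 7 without IL4 replicate 2 and 6 without unstimulated replicate 1 or without unstimulated replicate 2, and 16 with housekeeping scaling. The log2 difference was above 0 in 56 genes and below 0 in 20, with a median of 0.46, against -0.01 over all genes tested. Among the 64 genes with a mean log2 level of at least 5, 48 (75%) were above 0, against 47.7% of all 7283 genes with such a mean. Libraries did not overlap in 30 genes that were higher, against 11.7% of all genes tested, and in 3 that were lower, against 14.7%. In the 64 genes, they did not overlap in 27 that were higher and 1 that was lower, against 16.2% and 18.3% of the 7283. At an unadjusted p under 0.05, 10 of the 64 were higher and 0 lower, against 7.65% and 9.17%. The 3 lower genes with libraries that did not overlap were Mrps11, Mrps21 and Mrps34, all named for the small subunit.

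The genes named for each subunit were then taken apart. For IL4 minus unstimulated 37 of 47 Mrpl genes were above 0, with a median log2 difference of 0.53, and 19 of 29 Mrps genes were above 0, with a median of 0.26. The distance between these medians depended on single libraries, since the Mrpl and Mrps medians were 0.37 and 0.33 without IL4 replicate 1, 0.63 and 0.51 without IL4 replicate 2, and 0.51 and 0.44 without unstimulated replicate 2. Among genes listed with a counterpart in the bacterial ribosome (45) the median log2 difference was 0.28, and among the other 31 it was 0.61. The same medians were -0.12 and -0.11 for LPS plus IFNg minus unstimulated, and -0.48 and -0.63 for LPS plus IFNg minus IL4. Mrps18a and Mrps18b were counted among the other 31, and this split was not recomputed with libraries left out. The cytosolic ribosomal protein genes, which serve the other ribosome of the cell, had a median log2 difference of -0.00 for IL4 minus unstimulated. Of these genes 41 of 82 were above 0 and none were past the threshold (3 higher and 0 lower at an unadjusted p under 0.05).

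Mrpl39 is a large subunit protein added in the mitochondrial lineage. Its log2 level was 5.44, 7.16 and 5.69 in LPS plus IFNg libraries, 6.62, 6.62 and 6.38 in IL4 libraries, and 5.42 and 3.68 in unstimulated libraries. Both unstimulated libraries lay below the 6 stimulated ones, and they were 1.74 apart. The log2 difference for IL4 minus unstimulated was 1.99 (SE 0.70, limma adjusted p = 0.298). Mrpl41, also a large subunit protein of that kind, had 6.31, 6.10 and 6.24 in LPS plus IFNg libraries, 8.0, 7.08 and 5.92 in IL4 libraries, and 5.46 and 5.23 in unstimulated libraries. The IL4 libraries spread over more than 2 log2 units, and the difference of 1.65 had an SE of 0.58 (adjusted p = 0.296). Mrps31, a small subunit protein picked after its values were seen, had 5.05, 6.08 and 6.46 in LPS plus IFNg libraries, 6.89, 6.50 and 6.35 in IL4 libraries, and 5.27 and 5.18 in unstimulated libraries. Its IL4 libraries lay above both unstimulated ones, with a log2 difference of 1.36 (SE 0.49, adjusted p = 0.322).

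Mrps21, the counterpart of a small bacterial ribosomal protein, had log2 levels of 6.56, 6.90 and 6.13 in LPS plus IFNg libraries, 7.18, 5.41 and 7.24 in IL4 libraries, and 7.51 in both unstimulated libraries. All stimulated libraries lay below the unstimulated ones, with log2 differences of -0.98 for LPS plus IFNg (SE 0.58, adjusted p = 0.422) and -0.90 for IL4 (SE 0.58, adjusted p = 0.592). The comparisons with unstimulated cells share the same 2 unstimulated libraries, so the 2 differences are not independent.

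**Figure D3:**
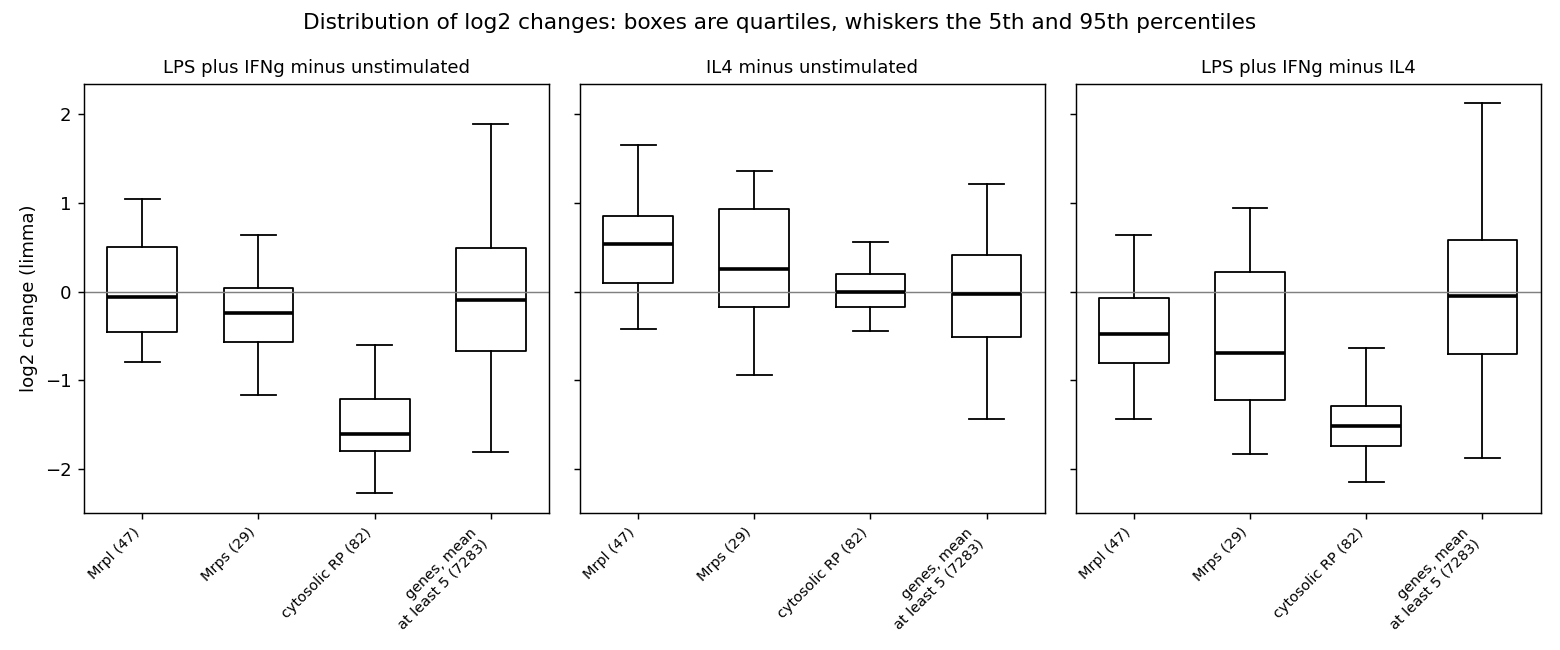
Log2 differences (vertical axis) in the 3 comparisons for 47 Mrpl genes, 29 Mrps genes, 82 cytosolic ribosomal protein genes and 7283 genes with a mean log2 level of at least 5. Boxes are quartiles with the median as a thick line and whiskers are the 5th and 95th percentiles, and the Mrpl median stands at 0.53 for IL4 minus unstimulated, where that of the cytosolic ribosomal protein genes is at 0.

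The comparison of LPS plus IFNg with unstimulated cells asks which transcripts classical activation alters. None of the 76 genes passed the limma test, against 3.72% of all genes tested that were higher and 4.25% that were lower. At an unadjusted p under 0.05, 1 was higher (Mrps2) and 1 lower (Mrps33), against 8.47% and 10.9% of all genes tested. The log2 difference was above 0 in 29 genes and below 0 in 47, with a median of -0.12, against -0.04 over all genes tested (0.44, against 0.51, with housekeeping scaling). The median was -0.07 over the Mrpl genes and -0.24 over the Mrps genes. The Mrpl median was above 0 without unstimulated replicate 1 (0.08), LPS plus IFNg replicate 2 (0.09) or LPS plus IFNg replicate 3 (0.05), and the Mrps median lay between -0.38 and -0.15 with each library left out. Libraries did not overlap in 10 genes that were higher (16.1% of all genes tested) and in 10 that were lower (20.7% of all genes tested). Of the 64 higher-level genes (mean of at least 5), 23 were above 0, against 45.7% of the 7283. Libraries did not overlap in 7 that were higher and 9 that were lower, against 21% and 27.4%, and 1 was higher and 1 lower at an unadjusted p under 0.05, against 11.5% and 15.4%. In the same comparison 57 of 82 cytosolic ribosomal protein genes fell and 0 rose, with a median log2 difference of -1.60.

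Mrps33, a small subunit protein of the mitochondrial lineage, had log2 levels of 7.82, 7.90 and 8.13 in LPS plus IFNg libraries, 8.37, 8.72 and 9.62 in IL4 libraries, and 9.06 and 8.98 in unstimulated libraries. The LPS plus IFNg libraries lay below all 5 others, and the IL4 libraries fell on both sides of the unstimulated ones. The log2 difference for LPS plus IFNg minus unstimulated was -1.07 (SE 0.35, limma adjusted p = 0.136). It passed without IL4 replicate 3 in the fit (adjusted p = 0.0294). Mrps9, the counterpart of a bacterial small subunit protein, had 8.33, 7.70 and 8.50 in LPS plus IFNg libraries, 9.11, 9.51 and 7.82 in IL4 libraries, and 9.14 and 8.86 in unstimulated libraries. Its difference from unstimulated cells was -0.83 for LPS plus IFNg (SE 0.50, adjusted p = 0.432), with the libraries not overlapping. Mrpl23, a protein at the exit of the peptide tunnel, had 4.76, 5.60 and 4.55 in LPS plus IFNg libraries, 7.48, 6.45 and 5.29 in IL4 libraries, and 6.50 and 6.38 in unstimulated libraries. The LPS plus IFNg libraries lay below both unstimulated ones, and IL4 replicate 3 lay among the LPS plus IFNg values. Its log2 difference was -1.47 (SE 0.68, adjusted p = 0.297).

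Mrps2, also with a counterpart in the bacterial small subunit, had log2 levels of 5.83, 7.04 and 5.48 in LPS plus IFNg libraries, 4.85, 3.84 and 5.50 in IL4 libraries, and 4.48 and 4.01 in unstimulated libraries. The LPS plus IFNg libraries lay above the unstimulated ones and overlapped with IL4 replicate 3. The log2 difference from unstimulated was 1.87 for LPS plus IFNg (SE 0.73, limma adjusted p = 0.212) and 0.49 for IL4 (SE 0.73, adjusted p = 0.863). Mrps2 was on the opposite side of 0 from the family's median in the comparison with IL4, at a log2 difference of 1.39 (SE 0.65, adjusted p = 0.240).

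**Figure D4:**
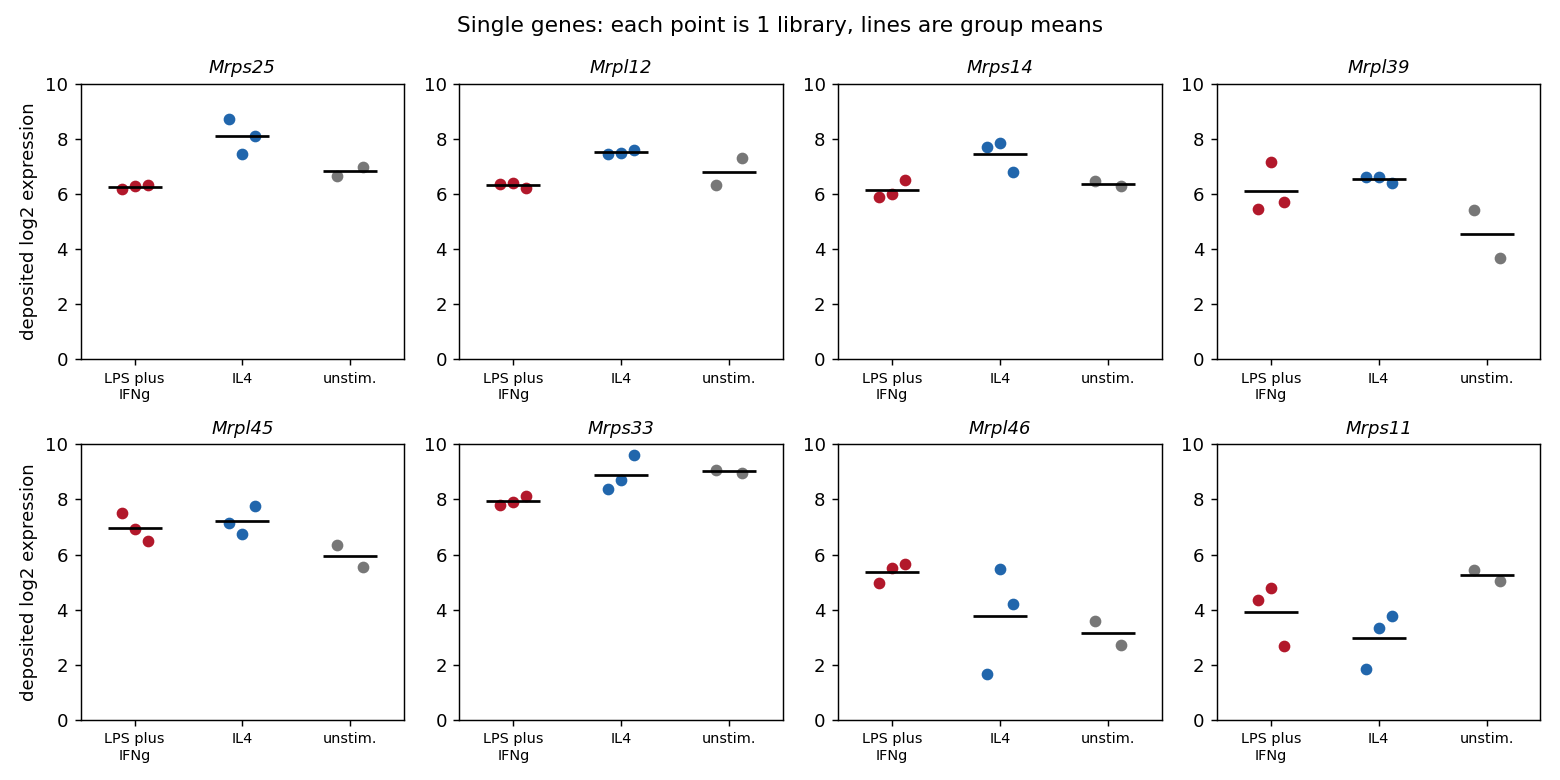
Deposited log2 expression (vertical axis, from 0) of 8 genes in the LPS plus IFNg, IL4 and unstimulated libraries, where each point is a library and lines are group means. In Mrps25 and Mrpl12 the 3 IL4 points stand above all others, in Mrps33 the 3 LPS plus IFNg points stand below all others, and in Mrpl46 the 3 IL4 points are spread between 1.65 and 5.48.

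Proteins around the exit of the peptide tunnel help the new chains reach the inner membrane. The 8 genes listed for this site (Mrpl17, Mrpl22, Mrpl23, Mrpl24, Mrpl39, Mrpl44, Mrpl45 and Mrpl47) had median log2 levels of 5.86, 6.09 and 6.09 in LPS plus IFNg libraries, 6.96, 6.54 and 6.31 in IL4 libraries, and 5.71 and 5.95 in unstimulated libraries. None passed in limma in any comparison. At an unadjusted p under 0.05, 2 were higher in IL4 against unstimulated (5.53% of all genes tested) and 2 lower in LPS plus IFNg against IL4 (13.9% of all genes tested). The median log2 difference was 0.42 for LPS plus IFNg minus unstimulated (5 of 8 above 0), 0.76 for IL4 minus unstimulated (5 of 8 above 0) and -0.34 for LPS plus IFNg minus IL4 (6 of 8 below 0). Mrpl45, which anchors the ribosome to the inner membrane, had 7.52, 6.93 and 6.49 in LPS plus IFNg libraries, 7.13, 6.76 and 7.75 in IL4 libraries, and 6.35 and 5.53 in unstimulated libraries. The 6 stimulated libraries lay above both unstimulated ones, with log2 differences of 1.04 for LPS plus IFNg (SE 0.46, adjusted p = 0.280) and 1.27 for IL4 (SE 0.46, adjusted p = 0.317). Mrpl47 had 6.65, 5.43 and 5.09 in LPS plus IFNg libraries, 6.78, 5.45 and 6.24 in IL4 libraries, and 5.44 and 4.14 in unstimulated libraries. Its IL4 libraries lay above the unstimulated ones by 0.01 at the closest. Mrpl22, Mrpl23 and Mrpl44 were below 0 in IL4 minus unstimulated, at -0.67, -0.03 and -0.23. Mrpl44 had 5.58, 5.14 and 6.55 in LPS plus IFNg libraries, 6.65, 5.51 and 4.92 in IL4 libraries, and 4.87 and 6.98 in unstimulated libraries, which overlapped throughout.

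The central protuberance is the crown of the large subunit that faces the small subunit. Its 8 listed genes (Mrpl18, Mrpl27, Mrpl33, Mrpl38, Mrpl40, Mrpl46, Mrpl48 and Mrpl55) had median log2 differences of 0.50 for LPS plus IFNg minus unstimulated (6 of 8 above 0), 0.43 for IL4 minus unstimulated (7 of 8 above 0) and -0.07 for LPS plus IFNg minus IL4 (5 of 8 below 0). None passed in limma, and at an unadjusted p under 0.05 there was 1 higher in IL4 against unstimulated (5.53% of all genes tested), 1 lower in LPS plus IFNg against IL4 (13.9% of all genes tested) and 0 in LPS plus IFNg against unstimulated. Mrpl55 had 6.32, 5.51 and 6.58 in LPS plus IFNg libraries, 6.59, 6.39 and 6.15 in IL4 libraries, and 5.28 and 5.20 in unstimulated libraries. All stimulated libraries lay above the unstimulated ones, with log2 differences of 0.89 for LPS plus IFNg (SE 0.43, adjusted p = 0.323) and 1.13 for IL4 (SE 0.43, adjusted p = 0.347). Mrpl18 had 8.73, 8.0 and 7.47 in LPS plus IFNg libraries, 8.84, 8.81 and 8.90 in IL4 libraries, and 8.42 and 8.71 in unstimulated libraries. Its IL4 libraries, within 0.10 of each other, lay above all others, and the log2 difference for LPS plus IFNg minus IL4 was -0.78 (SE 0.31, adjusted p = 0.170). Mrpl38 and Mrpl40 overlapped between all groups, with levels of 3.52 to 5.51 and 4.01 to 5.98.

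Mrpl46, of the central protuberance, and Mrps11, a small subunit gene named here after its values were seen, lie head to head. Their promoter windows are on opposite strands and share 141 bases, and their exons overlap in the annotation. Mrpl46 had 4.96, 5.51 and 5.67 in LPS plus IFNg libraries, 1.65, 5.48 and 4.20 in IL4 libraries, and 3.59 and 2.71 in unstimulated libraries. Mrps11 had 4.34, 4.78 and 2.66 in LPS plus IFNg libraries, 1.84, 3.35 and 3.75 in IL4 libraries, and 5.44 and 5.04 in unstimulated libraries. With LPS plus IFNg minus unstimulated, the log2 differences were 2.23 for Mrpl46 (SE 1.15, adjusted p = 0.352) and -1.31 for Mrps11 (SE 0.99, adjusted p = 0.553), so the neighbours stood on opposite sides of 0 and neither passed.

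The stalk genes are Mrpl10, Mrpl11 and Mrpl12. All 3 were above 0 in IL4 minus unstimulated, with a median log2 difference of 0.71, and below 0 in LPS plus IFNg minus IL4, with a median of -0.34. Mrpl10, which ties the stalk to the ribosome, had 6.10, 7.03 and 7.30 in LPS plus IFNg libraries, 6.59, 7.35 and 7.14 in IL4 libraries, and 6.36 and 6.10 in unstimulated libraries. Its IL4 libraries lay above the unstimulated ones and its LPS plus IFNg libraries overlapped with both groups. Mrpl11 ranged between 4.25 and 6.26 in LPS plus IFNg libraries, 5.31 and 6.24 in IL4 libraries, and 4.90 and 6.45 in unstimulated libraries, and its groups overlapped.

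Mrps18a, Mrps18b and Mrps18c are relatives of a single bacterial protein, and Mrps18a, like Mrps30, is built into the large subunit despite its name. Mrps18b had 2.35, 5.10 and 3.27 in LPS plus IFNg libraries, 5.54, 6.92 and 4.50 in IL4 libraries, and 1.35 and 4.82 in unstimulated libraries. Its replicates were up to 3.47 apart, so its log2 difference of -2.08 for LPS plus IFNg minus IL4 had an SE of 1.22 (adjusted p = 0.356). Mrps18c had 7.68, 7.07 and 7.40 in LPS plus IFNg libraries, 7.42, 6.08 and 6.15 in IL4 libraries, and 6.57 and 7.33 in unstimulated libraries. It was above 0 in LPS plus IFNg minus IL4, at 0.83 (SE 0.43, adjusted p = 0.291), with overlapping libraries. Mrps18a had 6.45, 6.16 and 6.07 in LPS plus IFNg libraries, 6.27, 5.45 and 6.31 in IL4 libraries, and 5.53 and 6.18 in unstimulated libraries, and overlapped throughout. Mrps30 likewise overlapped, with log2 differences of -0.87 for LPS plus IFNg (SE 0.75) and -0.17 for IL4 (SE 0.75) against unstimulated.

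Mrps36 was first named as a small subunit protein and later assigned to the oxoglutarate dehydrogenase complex. Its log2 level was 5.89, 5.18 and 6.21 in LPS plus IFNg libraries, 6.65, 6.68 and 6.38 in IL4 libraries, and 5.82 and 6.19 in unstimulated libraries. The IL4 libraries lay above all others, and the difference for LPS plus IFNg minus IL4 was -0.81 (SE 0.37, adjusted p = 0.226). Mrps34, a small subunit protein of the mitochondrial lineage, had 4.99, 5.55 and 5.41 in LPS plus IFNg libraries, 4.90, 3.07 and 4.97 in IL4 libraries, and 5.08 and 5.81 in unstimulated libraries. It was the 1 gene with every IL4 library below the 5 others, by 0.02 at the closest, and its log2 difference of 1.0 had an SE of 0.66 (adjusted p = 0.425). Exons of Mrps34 overlap those of Nme3 on the same strand, so reads could be split between them. Mrps6 had 2.21, 3.75 and 4.71 in LPS plus IFNg libraries, 5.26, 4.70 and 5.36 in IL4 libraries, and 3.86 and 3.94 in unstimulated libraries, with a log2 difference of -1.55 for LPS plus IFNg minus IL4 (SE 0.79, adjusted p = 0.281). It overlaps Slc5a3 on the same strand.

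Replicates were far apart in some of the genes. The range of a gene's log2 level within a group had a median of 1.09 over the 76 genes in LPS plus IFNg libraries, 1.01 in IL4 libraries and 0.457 in the 2 unstimulated libraries. Ranges over 2 log2 units were found in 14 genes with LPS plus IFNg, in 14 with IL4 and in 3 unstimulated. A range over 2 libraries is smaller on average than a range over 3, so the unstimulated values are not a like measure. The widest were Mrps23 with LPS plus IFNg, at 6.25, 1.17 and 3.53, Mrps7 with IL4, at 5.30, 5.51 and 1.54, and Mrpl36 unstimulated, at 3.97 and 0.37. Mrps7 and Mrpl36 each had 1 library far below the rest of the group, and the LPS plus IFNg libraries of Mrps23 were all far apart. The median pooled SD of the 76 genes was 0.659, against 0.710 over the 8280 genes within their range of mean levels. In the annotation, exons of 20 of the 76 genes overlap a gene on the opposite strand and exons of 4 overlap one on the same strand.

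**Figure D5:**
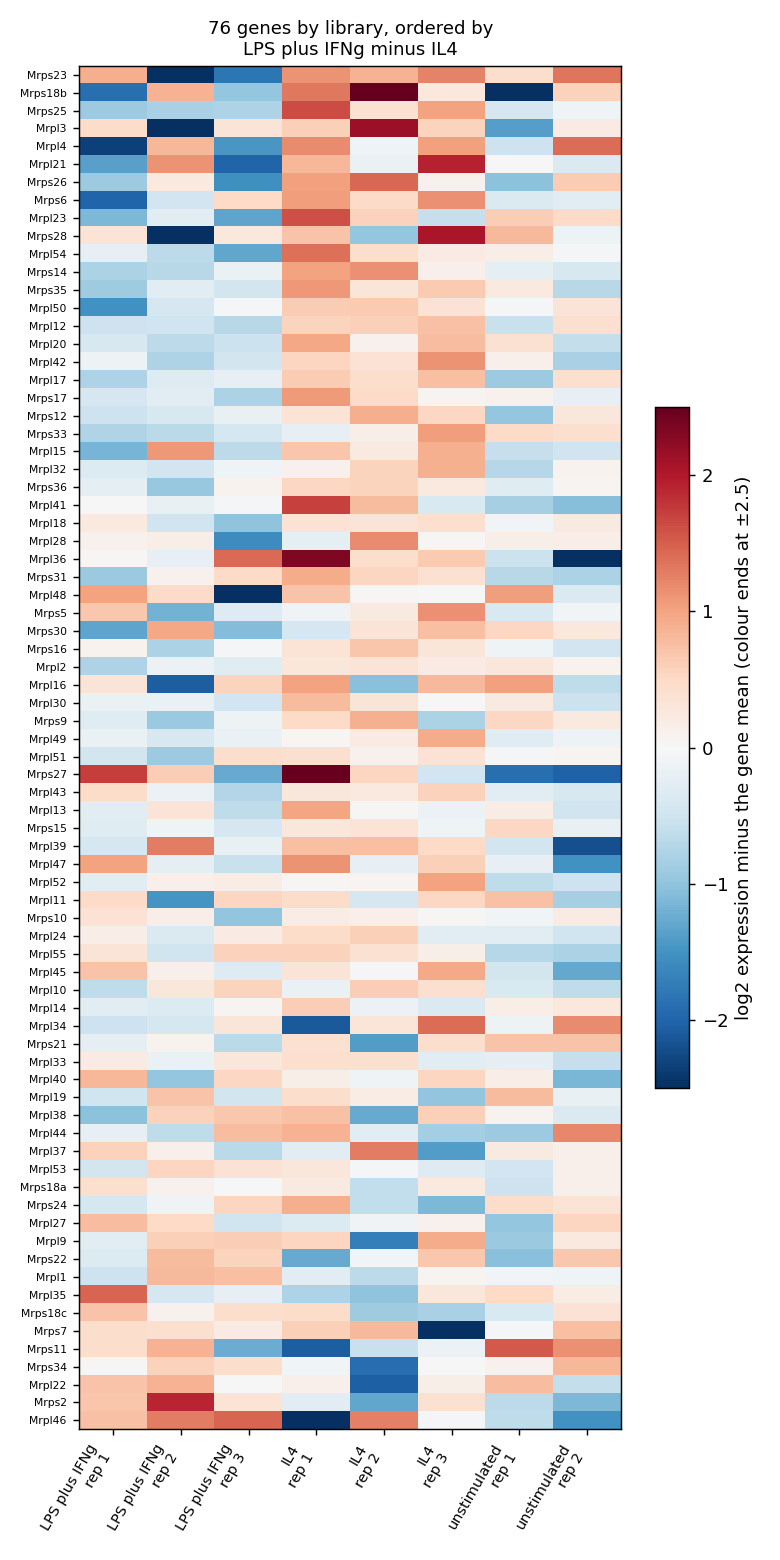
Log2 expression minus the gene's mean over the 8 libraries (colour, ending at ±2.5) for the 76 genes, in rows ordered by LPS plus IFNg minus IL4, and the libraries in columns. Red cells are most frequent in the 3 IL4 columns over most of the rows, and single dark blue cells, such as Mrps23 in LPS plus IFNg replicate 2 and Mrps7 in IL4 replicate 3, show libraries far below the gene's mean.

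Other genes of mitochondrial translation were taken from lists by function. Their calls, and those of the transcription factors that follow, were not recomputed under the alternative settings given below. Over all genes tested, 6.96% were lower and 5.91% higher in LPS plus IFNg against IL4 at the threshold, and most lists held a single such gene. Of 7 mitochondrial ribosomal proteins whose symbols do not match the pattern, 2 fell in LPS plus IFNg against IL4, 0 rose and 5 did not pass. Gadd45gip1, a large subunit protein, had 5.02, 4.97 and 4.90 in LPS plus IFNg libraries, 7.39, 6.74 and 7.97 in IL4 libraries, and 6.14 and 7.0 in unstimulated libraries. Its LPS plus IFNg libraries lay below all others, and its log2 difference from IL4 was -2.40 (SE 0.41, limma adjusted p = 0.00945). Mrp63, also of the large subunit, had a difference of -1.58 (SE 0.37, adjusted p = 0.0327). Among 11 translation factors 1 fell, Tsfm, the mitochondrial elongation factor Ts, at -1.46 (SE 0.28, adjusted p = 0.0147), and 0 rose. Of 19 tested genes of ribosome assembly and ribosomal RNA modification 1 fell, Rbfa, a small subunit assembly factor, at -1.20 (SE 0.29, adjusted p = 0.0355), and 0 rose. Of 17 mitochondrial aminoacyl-tRNA synthetases 1 fell, Nars2, whose level was at or under 0.91 in the LPS plus IFNg libraries, 3.07 to 5.20 in the IL4 libraries, and 0.39 and 0 in the unstimulated libraries (adjusted p = 0.0149). Of 13 tested genes of mitochondrial DNA transcription and RNA handling 1 fell, Tfb2m, a mitochondrial transcription factor, at -1.51 (SE 0.23, adjusted p = 0.00623), and it also fell against unstimulated cells, at -1.15 (SE 0.26, adjusted p = 0.0398). In IL4 against unstimulated cells none of these 5 lists had a gene that passed in limma, against 0.514% of all genes tested higher and 0.793% lower. At an unadjusted p under 0.05 a list held 0 to 2 higher and 0 to 1 lower, against 5.53% and 6.57% of all genes tested.

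Transcription factors and coactivators known to act on such genes were looked at in the same way. Myc, a growth regulator, had log2 levels of 5.54, 4.40 and 5.01 in LPS plus IFNg libraries, 10.05, 10.18 and 9.19 in IL4 libraries, and 7.52 and 8.57 in unstimulated libraries. The 3 groups did not overlap, and Myc fell with LPS plus IFNg against IL4 (log2 difference -4.82, SE 0.44, limma adjusted p = 0.000754) and against unstimulated (-3.06, SE 0.49, adjusted p = 0.0105). Against unstimulated cells its difference with IL4 was 1.77 (SE 0.49, adjusted p = 0.178). Ppargc1b, a coactivator of mitochondrial genes, rose with IL4 against unstimulated, at 8.63, 7.88 and 9.34 in IL4 libraries and 5.84 and 4.60 in unstimulated libraries (log2 difference 3.39, SE 0.57, adjusted p = 0.0434). Esrra, a nuclear receptor of the same pathway, was at 7.78, 7.87 and 8.19 in LPS plus IFNg libraries and 7.09, 6.83 and 6.44 in IL4 libraries, and it rose in LPS plus IFNg against IL4 (1.16, SE 0.26, adjusted p = 0.0269). Nrf1, Gabpa and Pprc1 did not pass in any of the comparisons. The list held 9 such genes, of which 8 were tested, and the others on it, Gabpb1, Yy1 and Ppargc1a, gave no call. Of the 8, 1 fell and 0 rose in LPS plus IFNg against unstimulated (4.25% and 3.72% of all genes tested). In IL4 against unstimulated 1 rose and 0 fell (0.514% and 0.793%). In LPS plus IFNg against IL4 1 rose and 1 fell (5.91% and 6.96%).

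Other genes moved with the same groups, and their part in the values of the mitochondrial ribosomal protein genes was not tested. The median log2 level of 20 cell cycle genes was 3.61 to 3.85 in LPS plus IFNg libraries, 6.79 to 7.19 in IL4 libraries and 6.66 to 6.74 in unstimulated libraries, and 15 of the 20 fell in LPS plus IFNg against IL4. The summed level of 10 neutrophil and granulocyte precursor markers, on the log2 scale, was 7.77 to 8.34 in LPS plus IFNg libraries, 10.1 to 10.8 in IL4 libraries and 11.2 to 11.3 in unstimulated libraries. Of the 10, 3 to 4 were at 0 in an LPS plus IFNg library, 1 to 2 in an IL4 library and 1 in each unstimulated library. Ctsg, Mpo and Prtn3 were at 0 in every LPS plus IFNg library and Prtn3 in every IL4 library. In the unstimulated libraries Ctsg was also at 0, Prtn3 stood at 0.74 and 0.37, and Mpo stood at 3.23 and 4.41. The 8 macrophage markers were all below 0 in IL4 minus unstimulated, with a median log2 difference of -1.19, and 4 of them fell. In LPS plus IFNg against unstimulated 1 rose and 2 fell (median -0.49), and in LPS plus IFNg against IL4 3 rose and 0 fell (median 0.25). Their summed level was 13.7 to 13.8 in LPS plus IFNg libraries, 13.2 to 13.8 in IL4 libraries and 14.3 in both unstimulated libraries, with 0 of the 8 at 0 in any library. The summed level of 6 fibroblast markers was 10.4 to 11.3 in LPS plus IFNg libraries, 10.3 to 10.8 in IL4 libraries and 11.3 to 11.7 in unstimulated libraries, with at most 1 of the 6 at 0 in a library. Scaling the libraries to equal means of 11 housekeeping genes put the median log2 difference of all genes at 0.51 for LPS plus IFNg minus unstimulated (-0.04 on the deposited scale), 0.15 for IL4 minus unstimulated (-0.01 on the deposited scale) and 0.40 for LPS plus IFNg minus IL4 (0 on the deposited scale). On that scale the median of the 76 genes was 0.44 for LPS plus IFNg minus unstimulated and -0.22 for LPS plus IFNg minus IL4. A scaling adds 1 constant to all genes of a library, so the distance of the family's median from that of all genes is by construction the same on each scale, at -0.08, 0.48 and -0.62.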

How the data were processed

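Polyadenylated RNA of 8 samples was sequenced from transcript 3' ends after oligo-dT priming, in strand-specific libraries, per the labels' protocols. TopHat and the mouse build mm9 are named in the submitters' processing notes. The counter and its strand setting were not named in the sources used here. The authors deposited 1 table of quantile-normalised log2 values with 20259 rows, of which 1 had no symbol and was left out. Quantile normalisation is meant to give libraries a common distribution, so a change in total RNA is not seen, and depth is unknown. The treatment of zero counts was not found in these sources either.

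A linear model per gene, with group means as coefficients over the 8 libraries and an intensity trend in the variance prior, was fitted in limma 3.58.1 (R 4.3.3), leaving 5 residual and 2.31 prior degrees of freedom. The 6643 genes with a single value in every library were left out, and two-sided p-values were adjusted by Benjamini and Hochberg over 13615 genes. Promoter windows and symbols came from RefSeq (GRCm38.p6) and exon overlaps from GENCODE M21, read with Python 3.11.15.

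The members and lists were chosen with earlier results of these data known. Genes named are those past the threshold, up to 4 largest rises and falls per comparison with a mean of at least 5 and libraries that did not overlap, and a fixed set by role. Alternatives were no intensity trend, the 2 groups compared alone, filters at a mean of 5 and on the lowest 0.25 of genes, a pseudocount of 1 on the linear scale, values below 0 set to 0, scaling to housekeeping genes, to cytosolic ribosomal protein genes or to the median, a block for replicate number, and leaving out each library in turn.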

Additional observations from a re-analysis of the deposited data

How the results depend on the processing

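Counts and medians were recomputed under 18 alternatives. Calls of single genes outside the family, such as Tsfm and Myc, were not. Of the results for 31 named genes in the 3 comparisons, 1507 of the recomputed values kept their direction and their side of the threshold, 108 changed sign with no call in either, 23 came to pass, 11 no longer passed and 7 reversed. The median log2 difference of the family was 0.62 for IL4 minus unstimulated with housekeeping scaling (0.35 to 0.59 with each library left out), -0.22 for LPS plus IFNg minus IL4 with housekeeping scaling and 0.86 with scaling to cytosolic ribosomal protein genes (-0.65 to -0.43 with each library left out), and 0.44 and 1.35 under these scalings for LPS plus IFNg minus unstimulated (-0.14 to -0.04 with each library left out). Scaling to cytosolic ribosomal protein genes, 57 of which fell with LPS plus IFNg, put the median of all genes at 1.42 for LPS plus IFNg minus unstimulated and 1.48 for LPS plus IFNg minus IL4 (-0.04 and 0 on the deposited scale). Under it 23 members were higher and 0 lower in LPS plus IFNg against IL4, where 6685 of all 13615 genes were higher and 285 lower. For LPS plus IFNg against unstimulated 32 members were higher, where 5365 of all 13615 genes were higher. The same scaling reversed Mrpl10 (1.26), Mrpl12 (0.28), Mrpl45 (1.25), Mrpl55 (1.24) and Mrps21 (1.40) in LPS plus IFNg minus IL4, and Mrps12 (1.44) and Mrps14 (1.23) in LPS plus IFNg minus unstimulated, and ended the call of Mrps25 in LPS plus IFNg minus IL4 (-0.36, adjusted p = 0.390). The count of members lower in LPS plus IFNg against IL4 was 1 without the intensity trend, 1 with the 2 groups alone, 1 with housekeeping scaling and 6 with the filter at a mean of 5, and 1 to 4 with each library left out; Mrps25 passed in each of these. In LPS plus IFNg against unstimulated it was 1, Mrps33, with the 2 groups alone and 0 to 1 with each library left out. Mrpl18 passed without LPS plus IFNg replicate 1, Mrps14 without IL4 replicate 3 or under either filter on low values, Mrpl54 with the filter at a mean of 5, and Mrps12 without unstimulated replicate 2. Same-numbered libraries showed no common deviation (correlations of -0.0791 to 0.0718 across 7283 genes, which are not independent). With 2 or 3 libraries per group these correlations cannot exclude that the numbers pair the libraries. With the replicate number as a block, 2 members were lower in LPS plus IFNg against IL4, Mrps25 and Mrps26, and Mrpl12 had an adjusted p of 0.0860. The cause of these changes was not tested. Members with a mean under 5 have no value under the filter at that mean. What the depth limits cannot be given, since the deposited values carry no counts.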
